A study of Homo sapiens with 6 samples.

Results

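The genes described here are the expressed protein-coding genes of human chromosome 8, followed in U937 cells, a human monocytic line. They were taken as the GENCODE protein-coding genes of chromosome 8 with a mean of at least 8 CPM (read counts relative to the scaled library total, on the usual scale) over 6 RNA-seq libraries. Ribosomal protein and respiratory chain genes, recognised by symbol, and a few genes named one by one were left out. This gave 292 members of the 311 chromosome 8 coding genes at that level and of the 18798 genes in the table. The chromosome was selected on the log2 ratios of its genes in 1 clone, ΔNSPs_2, where they read low, so the values of that clone are described without a test. MYC is among the members.

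The Control group held 3 lines transduced with control plasmids. The ΔNSPs group held 3 independent clones depleted of the neutrophil serine protease genes CTSG, ELANE and PRTN3 together. All 6 cultures grew in the same medium under geneticin, and each clone was sequenced in 1 library, so a value of a single clone has no replicate of its own. What drove the depletion construct is not given in the sources used here.

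Genes on a chromosome share its copy number, and in cell lines RNA levels commonly move with copy number, although feedback on transcription or RNA stability can offset this for single genes. Many products of chromosome 8 work in complexes whose other subunits are encoded elsewhere, such as the translation initiation factor eIF3 and the cohesin ring. MYC, a transcription factor that pairs with MAX and drives ribosome production and growth, lies on the long arm. The files hold RNA counts and no measurement of DNA.

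Library totals ran from 11476619 to 13782854 counts, and 3 counts corresponded to 0.215 to 0.26 CPM. The targeted genes followed the labels: CTSG read 1897.1 to 2750.4 CPM in Control and 45.1 to 136.2 CPM in ΔNSPs, and ELANE and PRTN3 were lower in all 3 clones as well. Of 12 monocytic markers, 9 had a mean of at least 1 CPM. The summed level of all 12 was 675.5 to 752.2 CPM in Control and 603.4 to 1023.5 CPM in ΔNSPs. CD68, CD14 and CD86 were under 1 CPM on average over the 6 libraries. Of 13 genes listed as markers of other cell types, 6 were in the table. They summed to 63.4 to 72.4 CPM in Control and 73.4 to 91.3 CPM in ΔNSPs. Most of this was PECAM1, at 43.9 to 52.7 CPM in Control and 53.4 to 64.8 CPM in ΔNSPs. Libraries differed within groups: the root mean square log2 difference over 14797 genes was 0.349 between Control_2 and Control_3, 0.477 and 0.484 from these to Control_1, and 0.647 between ΔNSPs_2 and ΔNSPs_3. ΔNSPs_1 was nearer to Control_2 and Control_3 (0.483 from each) than to ΔNSPs_2 (0.744) or ΔNSPs_3 (0.709).

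Chromosome 8 members were low as a body in ΔNSPs_2 and not in the other clones. Their median log2 ratio to the Control mean was -0.62 in ΔNSPs_2, which is 65.1% of the Control level, with quartiles at -0.85 and -0.38. The same median was -0.03 in ΔNSPs_1 and 0.00 in ΔNSPs_3, and the single Control libraries lay at -0.01, 0.03 and -0.01. Over the 9027 expressed coding genes of other chromosomes the ΔNSPs_2 median was 0.01. Among the 22 other chromosomes the ΔNSPs_2 medians ran from -0.15 on chromosome 4 to 0.44 on chromosome 15, and chromosomes 20 and 21 stood at 0.24 and 0.34. In ΔNSPs_3 chromosomes 20 and 21 were also raised, at 0.22 and 0.40, while chromosome 8 was not displaced. Chromosome 19 stood at 0.21 in ΔNSPs_3 and 0.07 in ΔNSPs_2. Chromosome 21 differed among the Control libraries too, at 0.16, -0.07 and -0.10. In bulk RNA, a lower level in all cells of the clone and a loss in only some of its cells cannot be told apart.

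**Figure D1:**
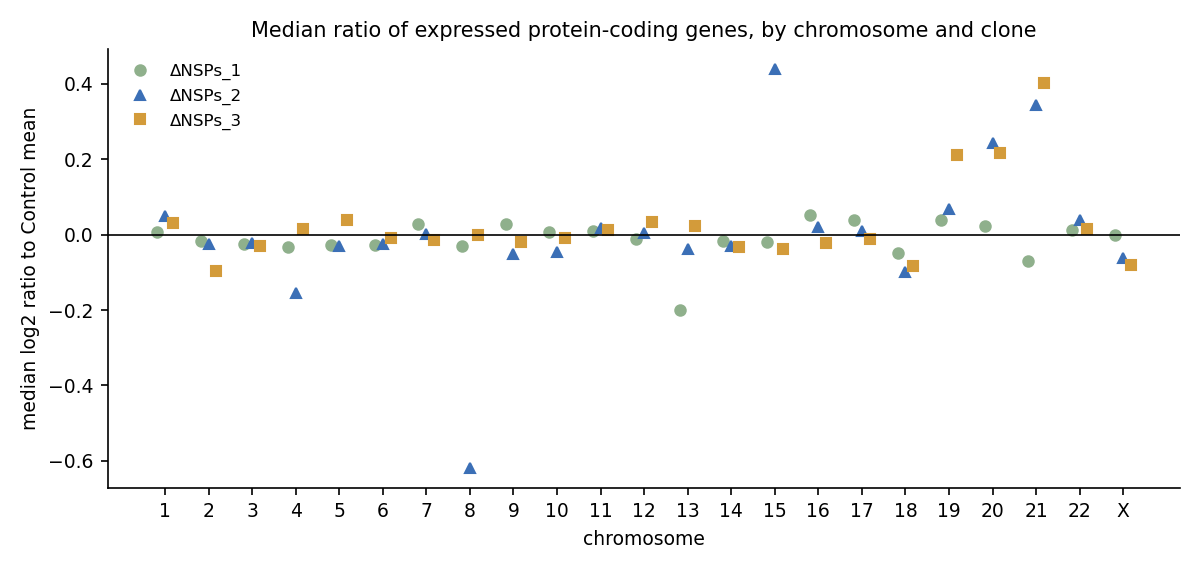
Median log2 ratio to the Control mean (vertical axis) of expressed protein-coding genes on each chromosome (horizontal axis), with 1 point for each of the 3 ΔNSPs clones. Chromosome 8 in ΔNSPs_2, at -0.62, lies far under every other point, and chromosome 15 in the same clone is the highest at 0.44.

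A member was counted as following the drop when its log2 ratio in ΔNSPs_2 was at or under -0.3 (81.2% of Control) and its CPM there was under all 3 Control libraries. By this count 236 of the 292 members followed (80.8%), beside 20.8% of all 9338 expressed coding genes. In ΔNSPs_1 39 members met the same criteria (13.4%, beside 13.1% of all genes), and in ΔNSPs_3 53 did (18.2%, beside 19.9%). ΔNSPs_2 was under every Control library for 265 members (beside 36.7% of all genes) and was the lowest of the 6 libraries for 254 (beside 21.7%). A ratio of -1 or lower, a level of 50% or less, was reached by 43 members (14.7%, beside 2.96%), and a ratio of -2 or lower by 9 (3.08%, beside 0.514%). Escape was counted as a log2 ratio of 0 or higher, which 15 members showed (5.14%, beside 50.1%), and the remaining 41 were intermediate. With the mean of ΔNSPs_1 and ΔNSPs_3 as the reference in place of Control, 9 members were at 0 or higher. These shares describe the values that chose the topic and support nothing further.

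The low ratios extended along the whole chromosome. On the short arm 76 of 105 members followed, with a median ratio of -0.59, and on the long arm 160 of 187, with a median of -0.65. In windows of 20 Mb from the chromosome start the median lay between -0.51, from 20 to 40 Mb, and -0.86, from 120 to 140 Mb. No single breakpoint divided the members well: the best step by squared deviations, between KAT6A and AP3M2 at 42.15 Mb, removed 2.01% of the deviation, with medians of -0.55 before it and -0.65 after it. By absolute deviations the best step fell between MCPH1 and AGPAT5 at 6.71 Mb and removed 1.36%. The search kept at least 5 members on each side, so this step lay at its limit and the group's size was set by the search. The 5 members on the telomere side of that step had a median of -1.22.

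Those 5 members were FBXO25, ERICH1, CLN8, KBTBD11 and MCPH1, singled out after their values were seen. KBTBD11, a kelch and BTB domain protein, read 385.9, 437.0 and 453.2 CPM in the Control lines and 371.4, 182.2 and 322.6 CPM in ΔNSPs_1 to ΔNSPs_3. ERICH1 read 40.0, 38.8 and 43.7 CPM in Control and 39.6, 15.6 and 40.8 CPM in the clones. CLN8, which carries lysosomal enzymes out of the endoplasmic reticulum, read 23.2, 27.2 and 29.3 CPM in Control and 30.2, 13.8 and 22.9 CPM in the clones. In each of the 3 the ΔNSPs_2 value stood under all other libraries. AGPAT5, the next member inward, fell less far, at 83.8 CPM in ΔNSPs_2 against 102.2 to 113.9 CPM in Control.

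**Figure D2:**
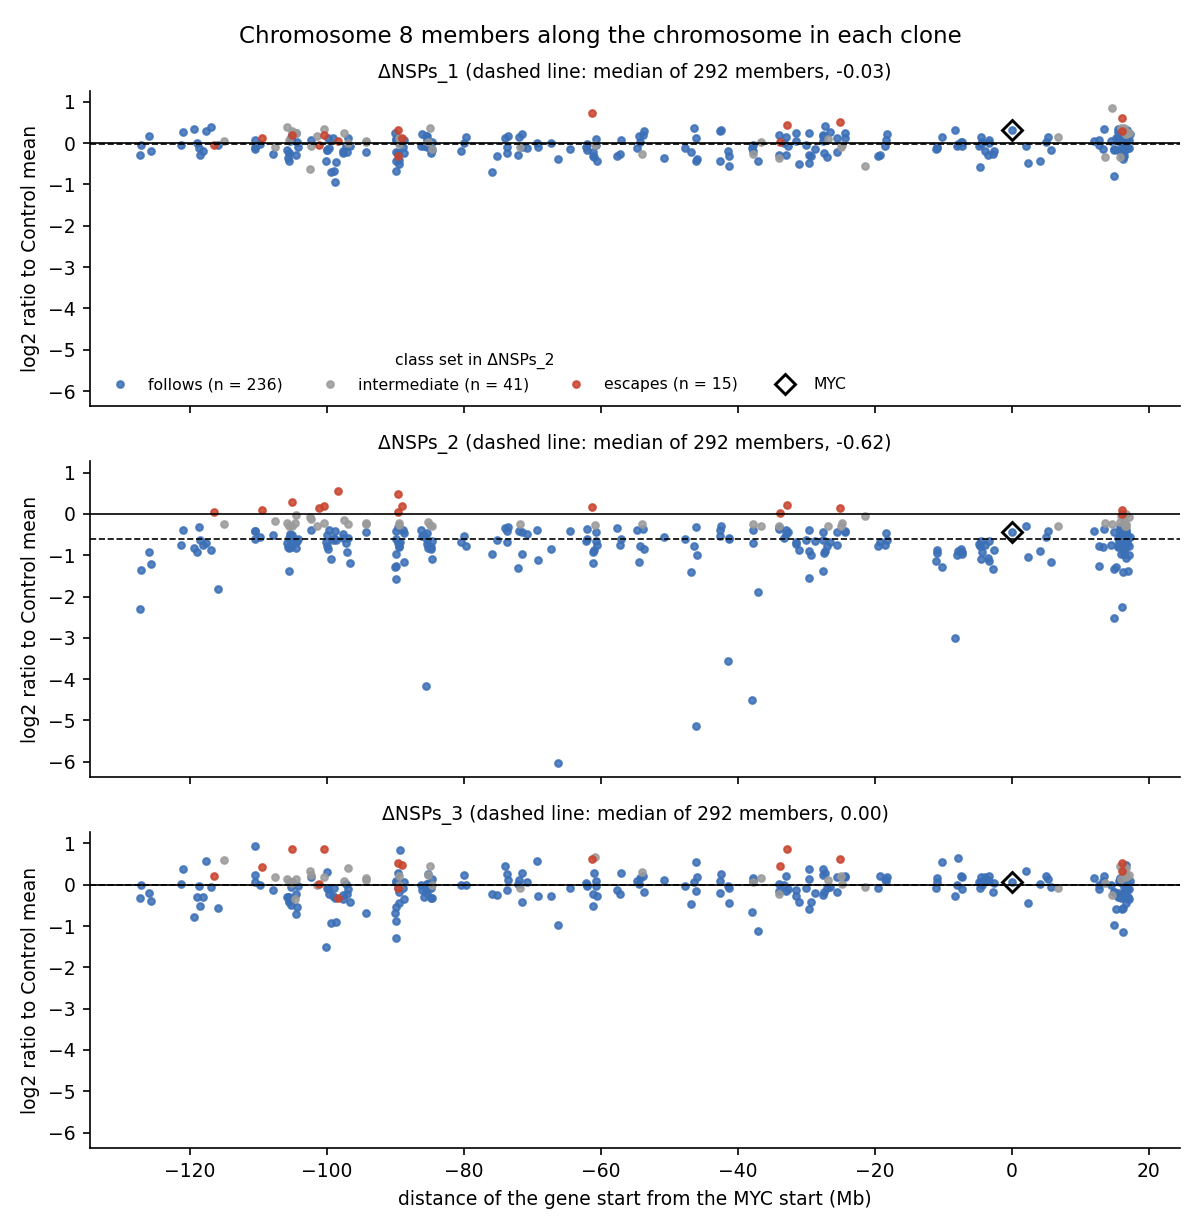
Log2 ratio of each of the 292 members to its Control mean (vertical axis) against the distance of its start from the MYC start in Mb (horizontal axis), in 1 panel per clone, coloured by the class set in ΔNSPs_2. In ΔNSPs_2 the points sit around -0.62 along the whole chromosome with 9 at or under -2, while in ΔNSPs_1 and ΔNSPs_3 they centre on -0.03 and 0.00.

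A stretch of the long arm that ends short of MYC was lower than the rest. From EIF3H to NSMCE2, with starts from 116.64 to 125.09 Mb, all 21 members followed, and their median ratio in ΔNSPs_2 was -0.93 (52.6% of Control) against -0.59 (66.4%) for the other 271 members. The limits of this stretch were set after the profile was seen. In ΔNSPs_1 and ΔNSPs_3 the same 21 members had medians of -0.06 and 0.06. EIF3H, a subunit of eIF3, read 264.8, 238.7 and 245.1 CPM in Control and 225.5, 113.4 and 237.4 CPM in the clones, so ΔNSPs_2 stood at 45.4% of the Control mean. RAD21, the cohesin subunit that closes the ring, read 322.8, 346.8 and 297.7 CPM in Control and 295.1, 177.2 and 336.0 CPM in the clones. For both genes ΔNSPs_2 was far under the other 5 libraries.

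Of the other members of the stretch, ATAD2, a bromodomain ATPase, read 135.3, 140.2 and 112.8 CPM in Control and 127.4, 60.3 and 147.3 CPM in the clones. MED30, a Mediator subunit, read 12.6, 15.3 and 14.4 CPM in Control and 15.5, 5.5 and 21.0 CPM in the clones. TAF2, a subunit of the general factor TFIID, read 55.5, 65.2 and 50.9 CPM in Control and 54.1, 28.4 and 56.9 CPM in the clones. The low library was ΔNSPs_2 in all 3 genes, which were named after their values were seen. NSMCE2, the SUMO ligase of the SMC5/6 complex, closed the stretch at 53.0% of Control. The smallest fall of the 21 was that of RNF139, an endoplasmic reticulum ubiquitin ligase, at a log2 ratio of -0.65.

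MYC (ENSG00000136997; GRCh38 chromosome 8, 127735434 to 127741434, plus strand) followed the drop, but less deeply than most members. It read 561.1, 458.3 and 478.8 CPM in the Control lines and 623.0, 368.2 and 518.5 CPM in ΔNSPs_1, ΔNSPs_2 and ΔNSPs_3. ΔNSPs_2 was the lowest of the 6 libraries, at 73.7% of the Control mean of 499.4 ± 54.4 CPM (SD, n = 3), and ΔNSPs_1 was the highest. The log2 ratios were 0.32, -0.44 and 0.05. As groups the clones and the Control lines overlapped fully, and the fitted log2 fold change over all 3 clones was 0.01 (SE 0.18). The direction of that fold change turned under several other settings, given with the other checks on processing.

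The genes that MYC works with were read from 2 lists. Of its partners and antagonists outside chromosome 8, 9 were expressed, with a median ratio of 0.15 in ΔNSPs_2. MAX, the obligate partner, read 82.8, 67.4 and 79.1 CPM in Control and 93.1, 84.1 and 78.9 CPM in the clones, with overlapping groups. MXD3, the most abundant of the 9, read 140.2, 143.4 and 157.9 CPM in Control and 183.8, 146.3 and 169.8 CPM in the clones, also overlapping. MXI1, which competes with MYC for MAX, read 44.9, 50.5 and 48.7 CPM in Control and 34.9, 32.9 and 38.7 CPM in the clones, all 3 of them lower. MXD4, of the same family, read 19.1, 24.2 and 25.2 CPM in Control and 18, 13.7 and 9.40 CPM in the clones, again lower in all 3. MLX read 62.0, 57.2 and 55.9 CPM in Control and 68.6, 77.9 and 67.4 CPM in the clones, higher in all 3. MXD1 read 12.7, 9.95 and 14.4 CPM in Control and 12.1, 14.9 and 22.0 CPM in the clones, with overlapping groups. None of the 9 passed edgeR's threshold or that of DESeq2 or limma, while before adjustment 1 higher and 2 lower genes were under 0.05 with each tool (over all genes edgeR had 9.23% higher and 8.6% lower before adjustment).

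Genes that respond to MYC, mostly nucleolar and growth genes, did not share the fall of chromosome 8. The 27 that were expressed from other chromosomes had median ratios of 0.27 in ΔNSPs_1, 0.04 in ΔNSPs_2 and 0.09 in ΔNSPs_3, beside 0.01 over all genes of other chromosomes in ΔNSPs_2. NPM1, the abundant nucleolar chaperone, read 1634.6, 1461.8 and 1434.0 CPM in Control and 1653.6, 1529.5 and 1615.1 CPM in the clones. HSPD1, the mitochondrial chaperonin and the most abundant of the 27, read 1684.2, 1698.4 and 1545.3 CPM in Control and 2166.2, 1480.3 and 1505.5 CPM in the clones. Groups overlapped for both, although ΔNSPs_2 and ΔNSPs_3 were under the Control range for HSPD1. edgeR called none of the 27, with 3 higher and 0 lower before adjustment; limma called none, and DESeq2 called 1 higher, NOP56. BOP1, the list's gene on chromosome 8 and a ribosome assembly factor, read 240.0, 197.8 and 211.4 CPM in Control and 262.2, 126.5 and 244.1 CPM in the clones, a log2 ratio of -0.77 in ΔNSPs_2.

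The most abundant members were lowest in ΔNSPs_2 and differed in how the other clones read. PABPC1, the cytoplasmic poly(A) binding protein, read 2524.1, 2124.1 and 2106.6 CPM in Control and 1782.5, 1322.9 and 2114.0 CPM in the clones. EIF3E, another eIF3 subunit, read 753.4, 716.7 and 731.7 CPM in Control and 595.7, 425.3 and 699.5 CPM in the clones. ΔNSPs_1 was also under every Control library for PABPC1, and for EIF3E all 3 clones were. PRKDC, the catalytic subunit of DNA-dependent protein kinase, read 774.7, 589.2 and 604.4 CPM in Control and 653.1, 452.8 and 771.8 CPM in the clones, with ΔNSPs_2 alone outside the Control range on the low side. MTDH read 417.4, 430.9 and 359.8 CPM in Control and 389.6, 259.2 and 381.0 CPM in the clones. EEF1D, a subunit of elongation factor 1, read 448.2, 359.3 and 406.8 CPM in Control and 428.4, 307.4 and 455.4 CPM in the clones. PABPC1, YWHAZ and EEF1D have processed pseudogenes, and reads shared with such copies are uncertain.

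ADGRA2, an adhesion G protein-coupled receptor, read 496.4, 604.0 and 627.8 CPM in Control and 360.6, 192.3 and 235.2 CPM in the clones, with no overlap between the groups and the lowest value in ΔNSPs_2. GRINA, a membrane protein of the TMBIM family, read 156.4, 267.1 and 269.0 CPM in Control and 184.5, 87.2 and 104.2 CPM in the clones. There the ΔNSPs_1 value lay within the Control range and only ΔNSPs_2 and ΔNSPs_3 were under it. CLU, clusterin, a secreted chaperone, read 73.0, 86.3 and 89.5 CPM in Control and 61.8, 51.5 and 29 CPM in the clones, lowest in ΔNSPs_3. ZNF395, a zinc finger factor, read 74.5, 80.9 and 98.7 CPM in Control and 52.4, 39.7 and 44.0 CPM in the clones. Of the 292 members, 60 were under every Control library in all 3 clones (20.5%, beside 13.1% of all expressed coding genes), and 5 were over every Control library in all 3 (1.71%, beside 13.3%). Both shares depend on ΔNSPs_2, which chose the topic and where 265 members were under every Control library. They show nothing about the other clones, where 13.4% (ΔNSPs_1) and 18.2% (ΔNSPs_3) met the criteria for following, beside 13.1% and 19.9% of all genes.

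In ΔNSPs_2 alone 5 members were close to absent, so that their loss went well past that of the chromosome. No share of all expressed genes at that depth was counted. Single genes of other chromosomes also fell very far in single libraries, with lowest ratios of -6.73 in ΔNSPs_3, -5.32 in Control_1 and -4.35 in Control_2. ZFAND1, a zinc finger protein of stress granule clearance, read 17.5, 16.1 and 17.1 CPM in Control, 12.5 and 15.2 CPM in ΔNSPs_1 and ΔNSPs_3, and 0 counts in ΔNSPs_2, at least 74.8-fold lower than the Control mean against a floor of 3 counts. RIPK2, the kinase that relays NOD receptor signals to NF-kB, read 7.07, 12.6 and 12.6 CPM in Control, 9.81 and 6.63 CPM in the other clones, and 0 counts in ΔNSPs_2, at least 47.8-fold lower. At the Control mean, 224 counts of ZFAND1 and 143 of RIPK2 would have been read in that library. ASPH, an aspartate hydroxylase of the endoplasmic reticulum, read 31.5, 51.1 and 42.7 CPM in Control, 31.9 and 21.2 CPM in ΔNSPs_1 and ΔNSPs_3, and 2 counts in ΔNSPs_2, 0.361% of the Control mean with an exact 95% Poisson interval of 0.0437 to 1.3%.

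AP3M2, a subunit of an AP-3 adaptor complex, read 7.75, 10.1 and 11.8 CPM in Control and 11.1 and 8.90 CPM in ΔNSPs_1 and ΔNSPs_3. It had 1 count in ΔNSPs_2, or 0.763% of the Control mean (interval 0.0193 to 4.25%). WWP1, a HECT ubiquitin ligase, read 9.37, 11.2 and 11.6 CPM in Control and 9.31 and 10.5 CPM in the other clones, with 6 counts in ΔNSPs_2, or 4.23% (interval 1.55 to 9.2%). These intervals and floors cover counting error only. The 5 genes lie apart along the chromosome, at 42.15 Mb for AP3M2, 61.5 Mb for ASPH, 81.7 Mb for ZFAND1, 86.34 Mb for WWP1 and 89.76 Mb for RIPK2. In the other clones AP3M2 stayed within the Control range, while ZFAND1 was under it in both, WWP1 in ΔNSPs_1, and RIPK2 and ASPH in ΔNSPs_3, all at a level far above that of ΔNSPs_2.

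A further set read well under the chromosome's median without being absent. NOV, a matricellular protein of the CCN family, read 21.8, 26.4 and 21.9 CPM in Control and 29.3, 2.49 and 19.4 CPM in the clones. FBXO25, a substrate receptor of an SCF ubiquitin ligase, read 29.7, 35.7 and 30.2 CPM in Control and 26.0, 6.10 and 25.5 CPM in the clones. NRBP2, a pseudokinase, read 11.6, 14.2 and 15.2 CPM in Control and 11.2, 2.49 and 8.90 CPM in the clones. ΔNSPs_2 was far under the other 5 libraries for all 3. PSCA, a cell surface protein with a GPI anchor, read 8.10, 16.3 and 21.3 CPM in Control and 8.52, 2.26 and 7.56 CPM in the clones, and TMEM64 read 15.8, 24.6 and 21.8 CPM in Control and 15.2, 5.20 and 9.32 CPM in the clones. For these last genes the Control values themselves spread widely.

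**Figure D3:**
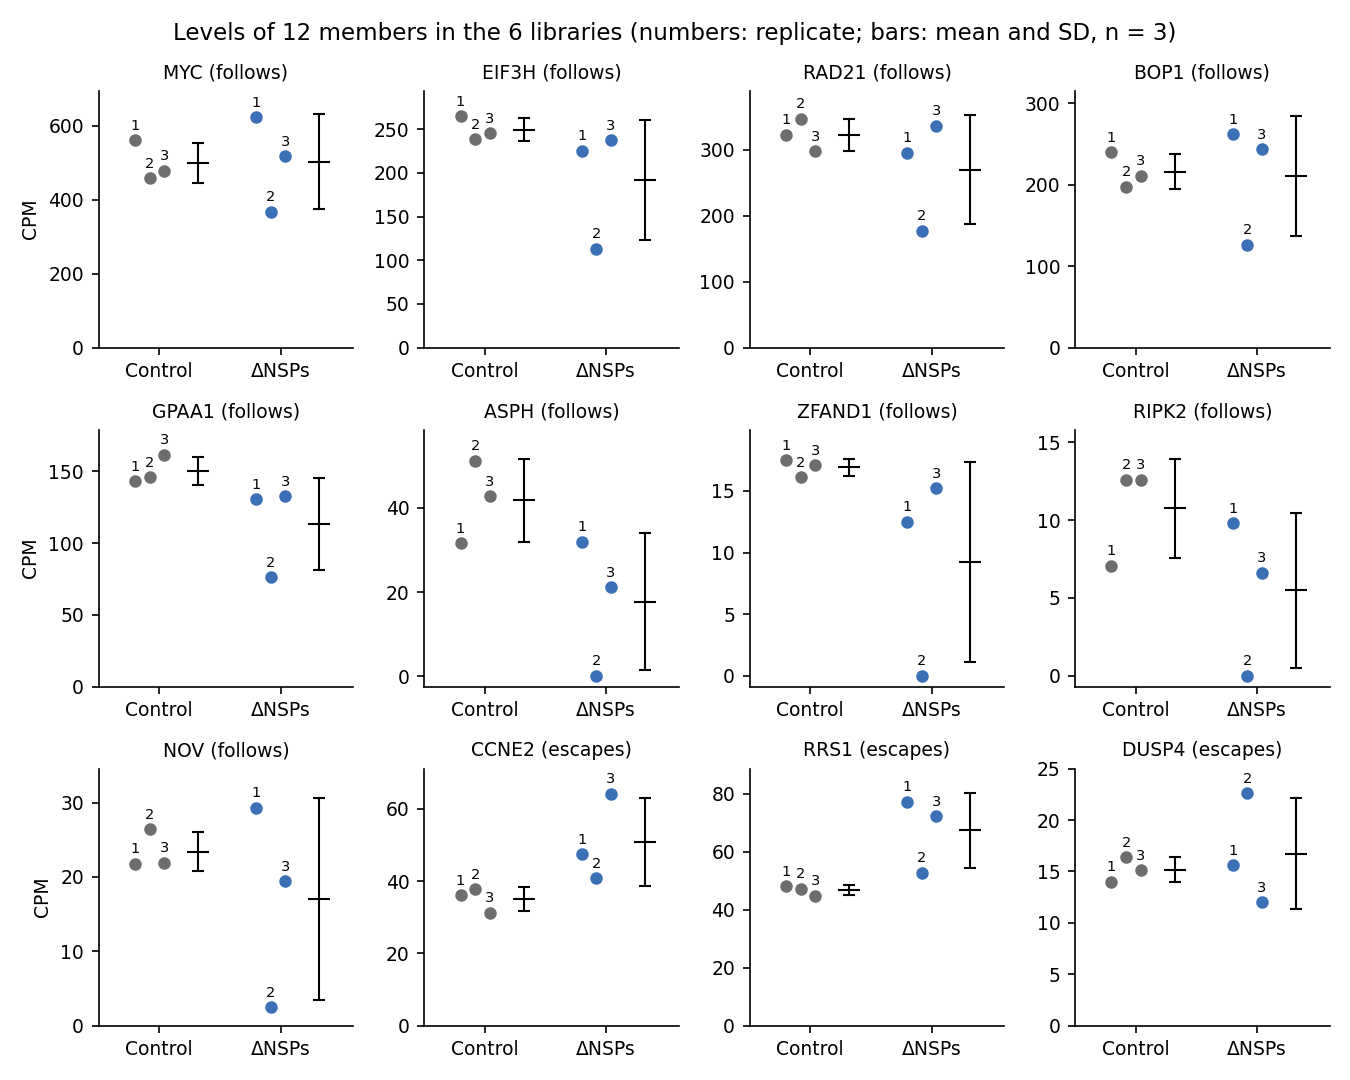
CPM (vertical axis, linear) of 12 members in each of the 6 libraries, with Control in grey and ΔNSPs in blue, replicate numbers beside the points, and bars for the mean and SD of 3 libraries. ΔNSPs_2 is lowest in the 9 members that follow, with ASPH, ZFAND1 and RIPK2 at or near 0, and lies over all Control libraries for CCNE2, RRS1 and DUSP4.

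The 15 escaping members were MTMR9, NAT1, PDLIM2, DPYSL2, PTK2B, DUSP4, STAR, LSM1, TACC1, RRS1, PDP1, CCNE2, KLF10, SCRIB and PLEC. Their median ratio in ΔNSPs_2 was 0.15, so escape here meant a level near that of Control. The same genes had medians of 0.18 in ΔNSPs_1, where 12 of 15 were over 0, and 0.48 in ΔNSPs_3, where 13 were. Of all 292 members, 157 (53.8%) were under 0 in ΔNSPs_1 and 146 (50%) in ΔNSPs_3. The 15 were chosen for a high ratio to the same Control mean, so these counts are a description only. The 236 following members had medians of -0.06 in both of those clones, and the intermediate ones 0.05 and 0.15. The 3 clones share the Control libraries, so these medians are not independent of each other.

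CCNE2, cyclin E2, which drives entry into S phase, read 36.0, 37.7 and 31.2 CPM in Control and 47.4, 40.7 and 64.2 CPM in the clones. RRS1, a ribosome assembly factor, read 48.0, 47.3 and 44.8 CPM in Control and 77.2, 52.8 and 72.3 CPM in the clones. KLF10, a transcription factor induced by TGF-beta, read 18.1, 17.4 and 18.3 CPM in Control and 25.8, 19.8 and 27.8 CPM in the clones. In each the groups did not overlap and ΔNSPs_2 was the lowest clone, so that against the mean of ΔNSPs_1 and ΔNSPs_3 their ratios in ΔNSPs_2 were -0.45, -0.50 and -0.43. PDLIM2, a PDZ and LIM protein that promotes the breakdown of nuclear RELA, read 31.2, 25.2 and 28.1 CPM in Control and 32.4, 34.4 and 51.2 CPM in the clones, and LSM1, of the cytoplasmic mRNA decay machinery, read 37.7, 37.8 and 35.1 CPM and 46.3, 38.3 and 52.8 CPM. With these 2 the 5 members over every Control library in all clones are complete.

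Of the other escaping members, DUSP4, a phosphatase that inactivates MAP kinases, had the highest ratio of any member in ΔNSPs_2 (0.56), reading 14, 16.4 and 15.1 CPM in Control and 15.6, 22.6 and 12 CPM in the clones. STAR, a cholesterol carrier of steroid-producing cells, read 77.3, 44.2 and 50.6 CPM in Control and 45.7, 80.2 and 54.0 CPM in the clones, so ΔNSPs_2 was close to Control_1. PTK2B, the tyrosine kinase PYK2 of leukocyte adhesion, read 120.6, 93.8 and 99.7 CPM in Control and 119.0, 120.0 and 190.4 CPM in the clones, where ΔNSPs_3 alone was out of range. TACC1, which binds microtubules and nuclear receptors, read 113.8, 127.4 and 106.5 CPM in Control and 126.1, 131.9 and 161.9 CPM in the clones. PLEC, plectin, a linker of intermediate filaments, read 146.3, 129.7 and 156.2 CPM in Control and 219.5, 153.9 and 181.7 CPM in the clones. DPYSL2, a microtubule-binding protein, read 97.1, 76.2 and 78.4 CPM in Control and 81.2, 92.9 and 84.8 CPM in the clones, within the Control range throughout. MTMR9, NAT1, PDP1 and SCRIB were likewise within the Control range in ΔNSPs_2, at 16.7, 9.49, 15.7 and 46.9 CPM.

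The places of the escaping members along the chromosome are given as counts. On the short arm 9 of 105 members escaped and on the long arm 6 of 187. Between 20 and 40 Mb lay 7 of the 15, but that window also held more members than any other of 20 Mb, 68. Whether the 15 were placed unevenly was not tested. Of the 30 places next to an escaping member in the order of members, 21 held following genes, a lower share than the 80.8% of all members, 7 held intermediate ones and 2 escaping ones, the last being STAR and LSM1 beside each other. For 8 of the 15 both neighbours followed. PLEC stood between NRBP2 at -2.25 and PARP10 at -0.74, and RRS1 between PDE7A at -0.61 and MYBL1 at -1.19. DPYSL2 stood between PPP2R2A at -0.30 and TRIM35 at -0.21, both intermediate. Exons of 146 members (50%) overlap another annotated gene, 121 of them (41.4%) a gene on the opposite strand, and without a stated strand setting such reads cannot be told apart. Among escaping members 8 of 15 (53.3%) overlap another gene, and among following ones 117 of 236 (49.6%). CCNE2 shares 37.1% of its exon length with INTS8 and another gene on the opposite strand, and LSM1 shares 38.5% with BAG4 and another gene.

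The threshold between following and intermediate members cut through a continuous range. The nearest members inside it were C8orf59, FAM49B and NAPRT, at -0.30, -0.30 and -0.31, and the nearest outside were YWHAZ, CCAR2 and AZIN1, each at -0.30 when rounded. YWHAZ, a 14-3-3 adaptor protein, read 811.0, 931.0 and 840.9 CPM in Control and 928.5, 699.4 and 932.2 CPM in ΔNSPs_1 to ΔNSPs_3. CCAR2, a regulator of the deacetylase SIRT1, read 275.9, 274.3 and 268.6 CPM in Control and 332.0, 222.0 and 279.9 CPM in the clones. Both are lowest in ΔNSPs_2 although counted as intermediate. LYN, the Src family kinase of myeloid cells, read 75.4, 108.5 and 96.7 CPM in Control and 87.4, 79.4 and 89.1 CPM in the clones, and there ΔNSPs_2 lay inside the Control range.

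Expression level bore weakly on the depth of the fall. The 97 members of lowest mean CPM had a median ratio of -0.75 and an SD of 1.05, the 98 in the middle -0.58 and 0.36, and the 97 highest -0.55 and 0.32. Across the 292 members, which share the same libraries, Pearson's r between the ratio and log2 mean CPM was 0.21 and Spearman's rho 0.14. With log2 exon length r was -0.01. Following members numbered 78, 77 and 81 in the 3 groups by level.

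For 16 complexes and protein families with members on chromosome 8, the subunits encoded elsewhere gave a comparison within the same library. The 21 subunits on chromosome 8 are members, so their low values in ΔNSPs_2 come with the choice of the topic. They had a median ratio of -0.48 there, and 16 of them followed. The 89 expressed subunits on other chromosomes had a median of 0.05, and 7 met the same criteria. Of all expressed coding genes 20.8% met them. In ΔNSPs_1 and ΔNSPs_3 the chromosome 8 subunits stood at -0.09 and 0.08 and the others at 0.07 and 0.07. Over all 3 clones edgeR called none of either set, with 0 of 21 and 9 of 89 (8 higher, 1 lower) at an unadjusted p under 0.05, beside 9.23% higher and 8.6% lower over all genes. limma called none as well, and DESeq2 called 1 of the 89, FGR. Taking from each complex or family its most abundant gene outside chromosome 8, 7 of the 16 stood at 0 or higher in ΔNSPs_2. The highest was PIGT of the GPI transamidase, at 0.68, which lies on chromosome 20.

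**Figure D4:**
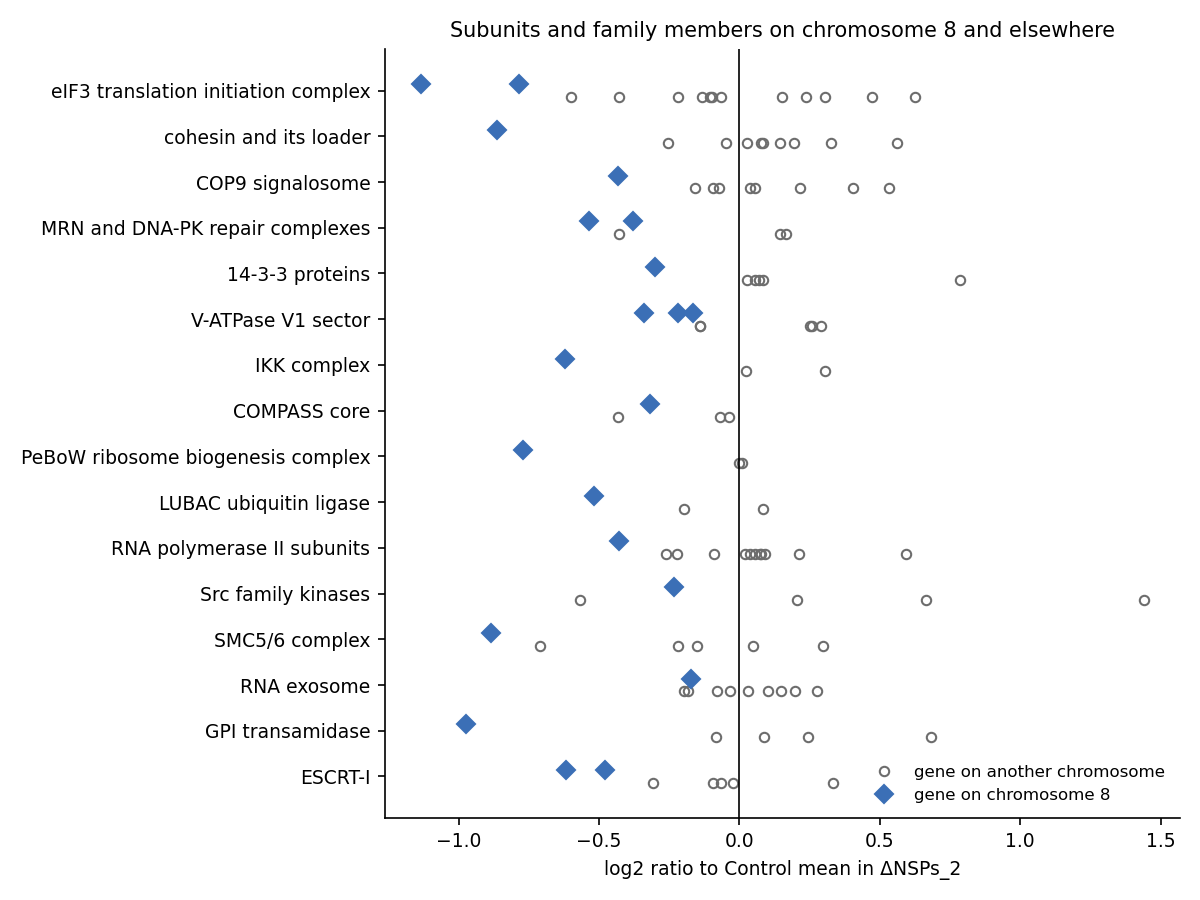
Log2 ratio to the Control mean in ΔNSPs_2 (horizontal axis) for the expressed genes of 16 complexes or families (vertical axis), with filled diamonds for genes on chromosome 8 and open circles for genes on other chromosomes. All 21 diamonds lie under 0, between -1.13 and -0.17, while the circles spread from -0.71 to 1.44.

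In cohesin, RAD21 stood at -0.86 in ΔNSPs_2, while SMC1A, SMC3 and STAG2 stood at 0.08, -0.05 and 0.08. In the PeBoW complex of ribosome assembly, BOP1 stood at -0.77 and its partners PES1 and WDR12 at 0.01 and 0.00. GPAA1, the GPI transamidase subunit that read 143.2, 145.9 and 161.5 CPM in Control and 130.3, 76.2 and 132.6 CPM in the clones, stood at -0.97, with PIGK at -0.08 and PIGS at 0.09. In each of these the chromosome 8 gene was the low one of its complex. IKBKB, the IKK kinase of NF-kB activation, read 60.2, 58.6 and 62.1 CPM in Control and 56.6, 39 and 60.5 CPM in the clones, a ratio of -0.62 against 0.31 for CHUK and 0.02 for IKBKG. SHARPIN of the linear ubiquitin ligase stood at -0.52, with its partners RNF31 at 0.09 and RBCK1 at -0.20.

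The eIF3 complex did not divide so cleanly. EIF3H and EIF3E stood at -1.13 and -0.79 in ΔNSPs_2, but 2 large subunits encoded elsewhere were low in that clone too. EIF3A, on chromosome 10, read 672.3, 683.8 and 654.1 CPM in Control and 752.1, 497.8 and 668.0 CPM in the clones. EIF3B, on chromosome 7, read 580.7, 562.9 and 583.7 CPM in Control and 700.9, 379.2 and 583.3 CPM in the clones. For both genes ΔNSPs_2 was under and ΔNSPs_1 over every Control library. EIF3J, on chromosome 15, stood at 0.63, above the 0.44 median of that chromosome. In SMC5/6, NSMCE4A on chromosome 10 stood at -0.71 beside NSMCE2 at -0.89.

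ATP6V1B2 and ATP6V1C1 of the proton pump V-ATPase and EXOSC4 of the RNA exosome were the least displaced of the 21. ATP6V1B2, ATP6V1C1 and ATP6V1H stood at -0.17, -0.22 and -0.34, and ATP6V1B2 read 208.3, 220.6 and 204.7 CPM in Control and 199.0, 188.2 and 240.9 CPM in the clones. EXOSC4 stood at -0.17, at 35.9 CPM in ΔNSPs_2 against 41.7, 35.4 and 44.8 CPM in Control, and was thus inside the Control range. COPS5, the catalytic subunit of the COP9 signalosome, stood at -0.43 and POLR2K, a small subunit of the RNA polymerases, at -0.43. In DNA repair, NBN stood at -0.38 and PRKDC at -0.53, against 0.14 for XRCC6 and 0.17 for XRCC5, while MRE11 on chromosome 11 stood at -0.43.

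The other clones had their own single displaced members without a shift of the chromosome. In ΔNSPs_1 the highest member was ADGRB1, an adhesion receptor, which read 21.7, 23.5 and 26.4 CPM in Control and 43.7 CPM in ΔNSPs_1, with at most 20.1 CPM in the other clones. The lowest there was HMBOX1, a homeobox protein, with 14.8, 13.6 and 15.2 CPM in Control and 7.37, 10.8 and 11.5 CPM in the clones, low in all 3. In ΔNSPs_3 the highest was ZDHHC2, a palmitoyltransferase, with 83.0 to 116.6 CPM in Control and 93.4, 74.6 and 190.2 CPM in the clones. FGFR1, a growth factor receptor, read 11.8, 8.86 and 7.53 CPM in Control and 9.38, 5.65 and 17.4 CPM in the clones. ZDHHC2 and FGFR1 were thus the highest of the 6 libraries in ΔNSPs_3 and the lowest in ΔNSPs_2.

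The test of all 3 clones against the 3 Control lines, which uses the contrast that chose the topic, is given as a count. edgeR called no member at an adjusted p under 0.05 (0.0135% of all genes tested were lower and 0.00676% higher), and before adjustment 44 members were lower and 6 higher at a p under 0.05 (15.1% and 2.05%, beside 8.6% and 9.23% of all genes). limma called none. DESeq2 called 10 members lower and 0 higher (2.07% and 1.91% of all genes with an adjusted p): CLU, ZNF395, KIF13B, ADGRA2, BRF2, PLPP5, CPNE3, TMEM64, ASAP1 and GRINA. Without ΔNSPs_1, edgeR called 10 members lower and 0 higher (3.13% and 3.04% of all genes): BMP1, SORBS3, CLU, ZNF395, ERLIN2, ADGRA2, BRF2, TMEM64, LY6E and GRINA. MYC was in neither set. BRF2 shares 59.0% of its exon length with ADGRA2 on the opposite strand. Without a stated strand setting, BRF2 and ADGRA2 may not be separate calls.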

How the data were processed

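The 6 libraries hold total RNA of U937 lines, 3 Control and 3 ΔNSPs, with groups and replicate numbers from the sample labels. The deposited values are raw counts, 1 column per library and 1 line per Ensembl gene. HISAT2 2.0.0, HTSeq 0.11.1, SAMtools 1.5.9 and FastQC, with the GRCh38.p12 build, come from the submitters' processing notes. Which annotation release and strand setting were used is not given in the sources used here. Each listed gene has at least 10 counts in all. GENCODE v29 gave symbols, positions and types for 18771 of 18798 genes.

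CPM were counts over the library total scaled by TMM, on the usual scale, and a log2 ratio is log2((CPM + 0.5)/(mean Control CPM + 0.5)), which understates changes of low genes. Ratios of single clones have no test. The group contrast was fitted over 14797 genes by edgeR 4.0.16 (R 4.3.3; quasi-likelihood test, filterByExpr, Benjamini-Hochberg, two-sided, adjusted p under 0.05), with DESeq2 1.42.0 and limma 3.58.1 (voom) as alternatives; the edgeR step was tested on simulated data. P-values measure the spread between these lines and clones. No pair of libraries of a group agreed within sampling noise (chi-square per degree of freedom at least 7.13), and the labels give no batch. Without molecular identifiers, reads cannot be taken as independent molecules.

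The members and the gene lists were chosen with earlier results of these data known. Named genes were MYC, the 8 most abundant members, the 10 lowest following and 10 highest escaping ones, the 5 highest and lowest in ΔNSPs_1 and ΔNSPs_3, listed genes on chromosome 8, members beside the -0.3 threshold, and the most abundant gene of each list; further ones are said to be chosen later. Not every gene this rule names is reported here. Other partner subunits, MAX, MXI1, MXD4, MLX, MXD1, NPM1 and the other escaping members were named after their values were seen.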

Additional observations from a re-analysis of the deposited data

How the results depend on the processing

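The median ratio of the members in ΔNSPs_2 was -0.59 with a pseudocount of 2 CPM and -0.59 with the mean of ΔNSPs_1 and ΔNSPs_3 as reference, against -0.62, and moved less under 9 other settings. Following members stayed within 1.5 times of 236 under all 13 settings. Escaping members were 9 with the other clones as reference, against 15, and within 1.5 times under 11 other settings. With windows of 10 Mb the highest window median was -0.46, against -0.51. Among 60 named members, the ratio of 11 changed sign in some setting: with the other clones as reference CLU and HMBOX1 turned to 0.18 and 0.18 and PDLIM2, PTK2B, TACC1, RRS1, CCNE2, KLF10 and PLEC to values from -0.13 (TACC1) to -0.50 (RRS1), and with Control_1 alone DPYSL2 and PTK2B turned under 0 and LYN over 0. Of 649 values 576 kept within the Control spread. The count of edgeR calls over all genes, 3, was 0 with a replicate block, 515 with DESeq2, 1 with limma voom, and 0 to 928 when 1 library was left out, the highest without ΔNSPs_1; member calls were 0 in each of these except DESeq2 and the fit without ΔNSPs_1. The fold change of MYC was -0.013 with the replicate block, -0.014 with limma voom and -0.17 to 0.19 when 1 library was left out. The replicate numbers do not pair the samples: same-numbered libraries correlated at -0.432, -0.161 and -0.14. The cause of these differences was not tested. ΔNSPs_2 has 1 library, so its values have no replicate check. The reference of Control_1 alone, the settings for partner subunits, and the limits of the long arm stretch were chosen after seeing the data.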

Other observations

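Chromosome 8 genes outside the 292 members were read in the same way. The 19 coding genes left out by name had a median log2 ratio of -0.66 in ΔNSPs_2, and 15 followed, beside 20.8% of all expressed coding genes. RPL8, a ribosomal protein of the large subunit, read 2588.8, 2101.5 and 2345.5 CPM in Control and 2145.1, 1209.0 and 2219.5 CPM in the clones. FDFT1, squalene synthase, read 575.9, 246.8 and 217.5 CPM in Control and 466.5, 257.1 and 614.6 CPM in the clones, so its ΔNSPs_2 level was inside a wide Control range. The 40 coding genes with a mean of 1 to 8 CPM had a median of -0.51, and 25 followed. No share over coding genes of other chromosomes at that low level was counted. DEPTOR, an inhibitor of mTOR, read 6.05, 5.52 and 6.49 CPM in Control and 3.65, 0.603 and 2.60 CPM in the clones, lower in all 3. TRMT12 and CLVS1 had 0 counts in ΔNSPs_2, against 3.63 to 4.69 and 3.15 to 4.79 CPM in Control. CLVS1 lies on the opposite strand over 5.44% of the exon length of ASPH, which had 2 counts there. Reads of CLVS1 and ASPH cannot be told apart without a stated strand setting, so CLVS1 may not be a separate loss.

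The 102 genes that do not code for protein had a median of -0.43 in ΔNSPs_2, and 60 followed. No share over noncoding genes of other chromosomes was counted. The 102 include antisense entries that lie over coding genes, whose reads cannot be told apart without a stated strand setting. AP003352.1, within the span of RPL30, read 893.3, 687.6 and 807.0 CPM in Control and 690.2, 519.2 and 787.9 CPM in the clones. RPL30 read 984.3, 726.8 and 881.9 CPM and 769.2, 568.4 and 858.2 CPM. PVT1, the long noncoding RNA beside MYC, read 8.35, 6.61 and 7.36 CPM in Control and 9.31, 8.21 and 11.3 CPM in the clones, so it was not low in ΔNSPs_2. CCDC26, farther along the same arm, read 10.6, 3.71 and 4.33 CPM in Control and 4.87, 8.44 and 28.3 CPM in the clones, highest in ΔNSPs_3. These genes were picked after their values were seen, and no test was made on them.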
